A study of Mus musculus with 12 samples.

Results

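Genes that mark mesothelium were followed through bulk RNA-seq libraries of sorted endothelial cells. The set comprised 8 genes, Msln, Upk3b, Upk1b, Lrrn4, Wt1, Krt8, Krt18 and Krt19, chosen by symbol from textbook markers of mesothelial cells, out of 27825 genes in the table. Each symbol matched 1 row, and 7 of the 8 genes passed the filter of a mean of at least 10 normalized counts over the 12 libraries; Wt1, with a mean of 6.05, was described but not tested.

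All cells came from male mice of the genotype ROSA26-eYFP+/+ Cdh5-CreERT2+, in which tamoxifen-activated Cre, driven by the endothelial cadherin gene Cdh5, turns on yellow fluorescent protein; the controls carried the same alleles and received the same tamoxifen food, which began at 6 weeks of age and lasted 2 weeks. From 8 weeks of age the mice ate normal chow (5.8% fat) or a high fat diet (60% fat) for 12 to 13 weeks. Mesentery or epididymal fat pads of 6 mice were pooled per sample, digested with the transcription blocker actinomycin D, and sorted for viable fluorescent cells. The 4 groups, chow mesentery, high fat mesentery, chow epididymal fat and high fat epididymal fat, had 3 libraries each, lettered A, B and C. The sample descriptions carried the numbers 50, 51 and 87 (chow A, B, C) and 88, 52 and 53 (high fat A, B, C). A mesentery and an epididymal library of the same diet and letter shared a number. Whether a shared number marks the same mice is not stated. The labels speak of 2 independent replicates but show 3 letters, so the p-values measure only the spread between these libraries, some of which may not be independent.

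Mesothelium is the single-layered epithelium that covers the peritoneal cavity, the mesentery and the surface of visceral fat. Its cells secrete a lubricating fluid, carry microvilli, and combine epithelial traits, such as the paired filament proteins keratin 8 and keratin 18, with the transcription factor WT1, which acts in their development from mesoderm. Their surface carries mesothelin and uroplakins, proteins otherwise known from the lining of the bladder. Endothelial cells, although they also form a flat lining, are identified by other genes, such as Cdh5 and Pecam1.

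Assigned reads ranged from 8348897 in chow mesentery library C to 25397963 in high fat epididymal library C, and 3 reads corresponded to 2.12 to 4.22 normalized counts depending on the library. The labelled endothelial identity was checked with 8 endothelial genes, whose summed level was 92079 to 140488 normalized counts in chow mesentery, 86579 to 106183 in high fat mesentery, 50780 to 56405 in chow epididymal fat and 23290 to 46410 in high fat epididymal fat. The highest single value of a mesothelial gene was 408 normalized counts. In a bulk library, fewer cells of a type and less RNA per cell cannot be told apart.

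The upstream windows are shown for Lrrn4, Upk3b, Krt8 and Krt18, because the RefSeq table (GRCm38.p6) held only these 4 of the 8 genes. A link between the motifs and the levels was not tested. Each window runs 250 bases 5′ of the annotated start on the gene's own strand. Capitals mark GGAATG, the core recognised by TEAD factors, and GNGNGGGNG, a WT1-type core, each searched on both strands.

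Lrrn4: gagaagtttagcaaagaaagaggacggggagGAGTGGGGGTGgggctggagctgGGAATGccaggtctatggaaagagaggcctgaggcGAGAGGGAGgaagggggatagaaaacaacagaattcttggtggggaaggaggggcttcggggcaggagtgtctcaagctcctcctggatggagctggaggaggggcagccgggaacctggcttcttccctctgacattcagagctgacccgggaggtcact

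Upk3b: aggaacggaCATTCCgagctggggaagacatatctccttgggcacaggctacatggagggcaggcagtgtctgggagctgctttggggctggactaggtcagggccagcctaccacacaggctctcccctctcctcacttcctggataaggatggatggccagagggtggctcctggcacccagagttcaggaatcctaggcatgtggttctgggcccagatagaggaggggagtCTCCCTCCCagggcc

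Krt8: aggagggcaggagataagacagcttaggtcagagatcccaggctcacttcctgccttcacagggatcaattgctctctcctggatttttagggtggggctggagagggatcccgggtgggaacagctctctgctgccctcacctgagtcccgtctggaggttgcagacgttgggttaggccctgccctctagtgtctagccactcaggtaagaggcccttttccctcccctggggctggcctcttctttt

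Krt18: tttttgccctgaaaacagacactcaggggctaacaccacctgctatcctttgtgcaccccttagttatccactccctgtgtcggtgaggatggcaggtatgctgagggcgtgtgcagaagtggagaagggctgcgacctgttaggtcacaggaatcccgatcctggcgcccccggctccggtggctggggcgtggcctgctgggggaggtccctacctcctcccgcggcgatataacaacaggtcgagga

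The Lrrn4 window (chr2:132880863-132881112, minus strand) held GGAATG at -196 to -191 from the start. It held 3 WT1-type matches, of which those at -219 to -211 and -217 to -209 overlap, and another at -161 to -153. The Upk3b window (chr5:136038246-136038495, plus strand) held the TEAD core at -241 to -236 and 1 WT1-type match at -15 to -7, both on the opposite strand. The Krt8 window (chr15:102004343-102004592, minus strand) and the Krt18 window (chr15:102027966-102028215, plus strand), which lie on the same chromosome, held neither motif. Of 32851 promoter windows of this length, 12.6% held GGAATG and 35.8% held GNGNGGGNG. The TATA box core, TATAAA, was found in none of the 4 windows and in 12.4% of all windows. Promoters of Msln, Upk1b, Wt1 and Krt19 were not analysed here.

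The comparison of the tissues on chow asked where the mesothelial genes were more abundant. Msln, Upk3b, Upk1b and Lrrn4, which encode surface proteins, were higher in epididymal fat than in mesentery, by 3.00 to 4.08 on the log2(normalized count + 1) scale for the first 3, while the size for Lrrn4 depends on the pseudocount. Of the 7 genes tested, 4 rose and 0 fell (limma, Benjamini-Hochberg adjusted p under 0.05). Among all 22238 genes tested, 12.8% were called in this comparison and 7.32% were called higher in epididymal fat. Lrrn4 is among these genes although it passed the filter only through epididymal fat. The median change of the 7 genes, 3.00 beside -0.08 over all genes tested, is raised by counting it. The keratins had a median of -0.47 and none of the 3 was called.

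Msln encodes mesothelin, a surface glycoprotein held in the membrane by a lipid anchor. It was at 25.1, 7.17 and 0 normalized counts in chow mesentery (A, B, C) and at 40.2, 29.1 and 6.92 in high fat mesentery. In epididymal fat it was at 209, 129 and 36.8 on chow and at 78.7, 71.0 and 70.1 on the high fat diet. Every epididymal library exceeded every mesentery library within each diet, and the 3 high fat epididymal values lay close together. On chow the log2 change between tissues was 4.08 ± 1.07 (SE, adjusted p = 0.0241).

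Upk3b encodes uroplakin 3B, a membrane protein of the uroplakin family. It was at 30.7, 14.3 and 16.9 normalized counts in chow mesentery and at 40.2, 36.0 and 9.88 in high fat mesentery. The epididymal values were 110, 243 and 162 on chow and 60.7, 140 and 58.0 on the high fat diet. No epididymal value was as low as any mesentery value. The change between tissues on chow was 3.00 ± 0.615 (SE, adjusted p = 0.00608), and it was past the threshold under all 25 alternative settings (adjusted p from 3.32e-05 to 0.0463).

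Upk1b encodes uroplakin 1B, a tetraspanin. It was at 5.69, 23.3 and 21.1 normalized counts in chow mesentery and at 0.935, 27.7 and 9.88 in high fat mesentery. In epididymal fat the levels were 203, 186 and 85.8 on chow and 58.5, 118 and 58.7 on the high fat diet. The tissues did not overlap on either diet, and high fat mesentery library A, which held a single read, was the lowest of the 12. The change on chow was 3.28 ± 0.899 (SE, adjusted p = 0.0288).

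Lrrn4 encodes a leucine-rich repeat membrane protein. It was at 0, 0 and 4.22 normalized counts in chow mesentery and at 1.87, 8.32 and 0 in high fat mesentery, so most mesentery libraries lay at or under 3 reads. In epididymal fat it was at 15.7, 53 and 36.8 on chow and at 37.1, 28.1 and 5.66 on the high fat diet. The tissues were separate on chow and overlapped on the high fat diet, where epididymal library C was below mesentery library B. Lrrn4 passed the filter on low values only through epididymal fat. The fitted change on chow was 4.22 ± 1.26 (SE, adjusted p = 0.0426), but its size is set by the pseudocount, at 4.91 with 0.5 and 2.59 with 5, and it is no measure of the fold. As a ratio of pooled reads, 117 in epididymal fat to 3 in mesentery, it was 31.0 with a 95% interval of 10.3 to 152 that covers counting error only.

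Wt1 encodes the zinc finger factor that is among the most used nuclear markers of mesothelium. It was listed at 0 in all 3 chow mesentery libraries and at 0, 11.1 and 0 normalized counts in high fat mesentery. It was at 4.70, 10.4 and 7.15 in chow epididymal fat and at 21.4, 6.61 and 11.3 in high fat epididymal fat. All 6 epididymal libraries therefore held reads, against 1 of 6 mesentery libraries. On chow the 25 epididymal reads against none put Wt1 at least 2.16-fold higher, set against a floor of 3 reads in each mesentery library. With high fat feeding 43 reads stood against 8, a ratio of 4.29 (95% counting interval 1.99 to 10.6). Whether reads were counted by strand is not given in the sources used here, so reads of Wt1 and of its antisense neighbour cannot be told apart.

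**Figure D1:**
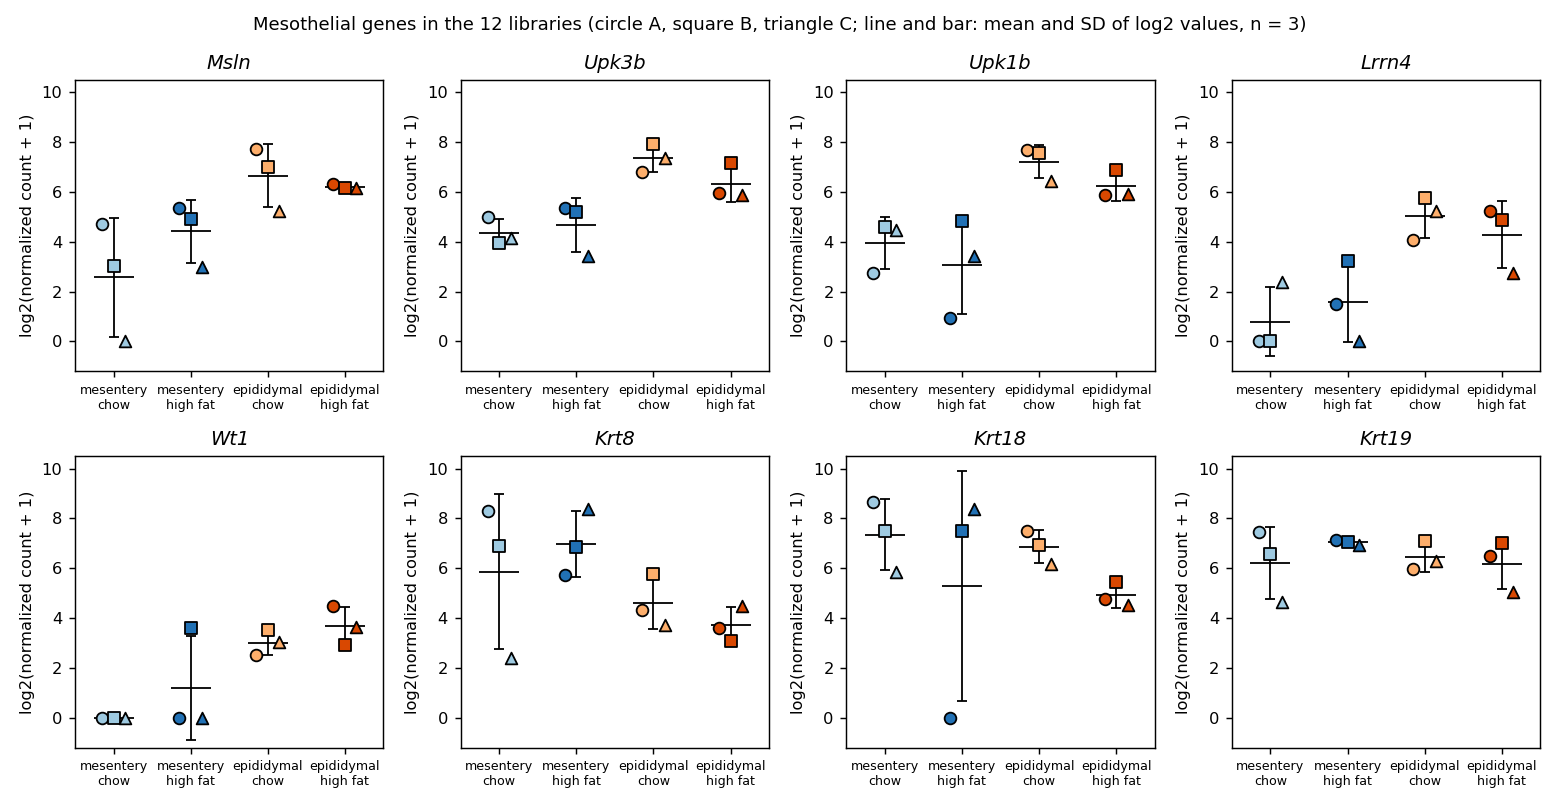
Level of each of the 8 mesothelial genes in the 12 libraries, as log2(normalized count + 1), with circle, square and triangle for libraries A, B and C and the mean and SD (n = 3) of the log2 values per group. The epididymal points of Msln, Upk3b and Upk1b lie above all mesentery points of the same diet, whereas those of Krt8 on the high fat diet lie below them and Krt19 is level.

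Of the 4 calls on chow, Upk3b was the one kept when any library was left out. With chow epididymal library A or B left out, it was the only gene called. Without chow mesentery library A, Upk1b (adjusted p = 0.119) and Lrrn4 (0.133) were not called, and edgeR called Upk3b and Upk1b only. Across all alternatives Upk1b was called in 21 of 25, Msln in 20 of 25 and Lrrn4 in 13 of 24, with the direction unchanged in each. In the libraries numbered 50 to 53 alone all 4 were called on chow, and those numbered 87 and 88, with 1 library a group, gave no test. Rescaling the columns to the same total left Lrrn4 uncalled (adjusted p = 0.0548), and changed the share of higher genes among all genes called from 57.2% to 67.3%.

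The same comparison on the high fat diet gave smaller estimates for most of the surface genes. Of the 7 genes tested, 1 rose and 0 fell, beside 8.34% of all genes called and 4.91% called higher in epididymal fat. The gene was Upk1b, at 3.15 ± 0.899 on the log2 scale (SE, adjusted p = 0.0470). The call was kept under 9 of 25 alternatives, with adjusted p from 0.0152 to 0.167, and was lost under both other scalings and in edgeR, while DESeq2 kept it. Lrrn4 changed by 2.703 ± 1.26 (adjusted p = 0.241), Msln by 1.79 ± 1.07 (0.399) and Upk3b by 1.65 ± 0.615 (0.129), none of which passed. The median over the 7 genes, 1.65 beside 0.06 over all genes, is again raised by counting Lrrn4. Under rescaling to the same total the share of higher genes among all those called went from 58.9% to 35.4%.

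Within each pair of libraries that share a number, Msln, Upk3b, Upk1b and Lrrn4 were higher in epididymal fat in 3 of 3 pairs on each diet. Where the groups do not overlap, this follows from the separation, and the share of all genes with such pairs was not counted. Wt1 was higher in 3 of 3 and 2 of 3. The groups did not overlap for 4 genes on chow, Lrrn4, Upk3b, Upk1b and Msln, where 28.7% of all genes did not overlap. Lrrn4 is counted here although it passed the filter only through epididymal fat, so its separation and its pairs are no independent result. On the high fat diet Upk3b, Upk1b, Msln and Krt8 did not overlap, beside 26.4% of all genes.

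**Figure D2:**
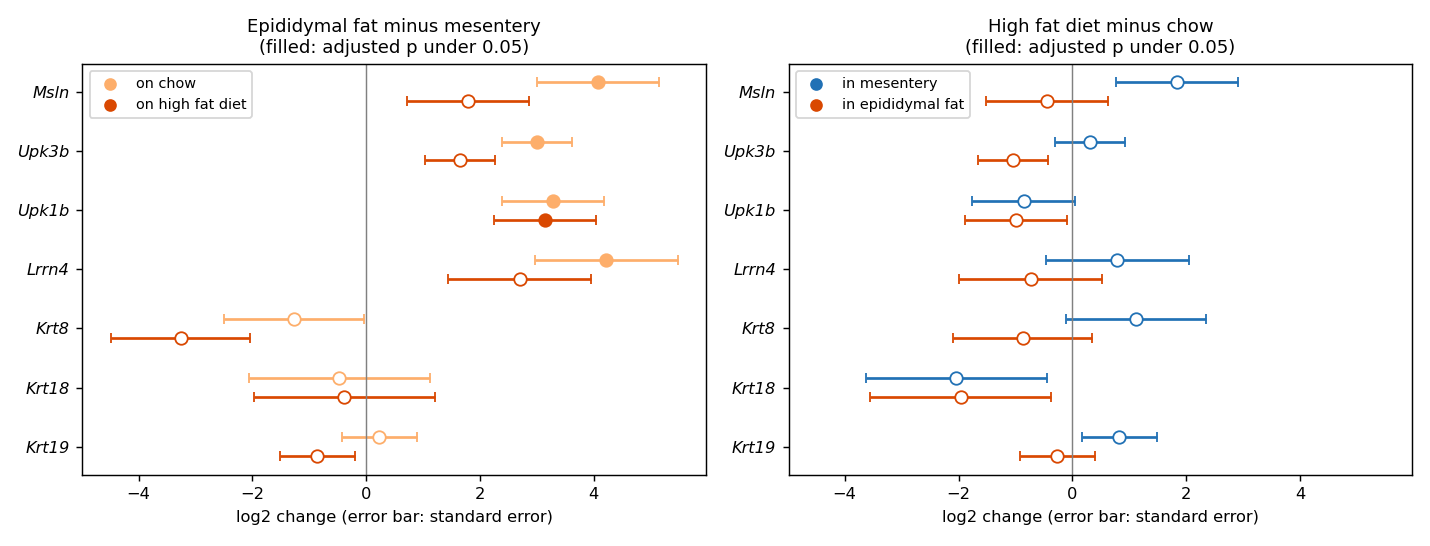
Fitted log2 changes of the 7 tested genes with standard errors, for epididymal fat minus mesentery on each diet (left) and high fat diet minus chow in each tissue (right), where filled points have an adjusted p under 0.05. The filled points are Msln, Upk3b, Upk1b and Lrrn4 on chow and Upk1b on the high fat diet, all in the left panel.

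The keratins did not follow the surface genes. Krt8 encodes keratin 8, the type II partner of keratin 18 in simple epithelia. It was at 317, 119 and 4.22 normalized counts in chow mesentery and at 52.4, 114 and 330 in high fat mesentery. The epididymal values were 18.8, 53 and 12.3 on chow and 11.2, 7.43 and 21.2 on the high fat diet. Krt8 was lower in epididymal fat in 2 of 3 pairs of libraries that share a number on chow and in 3 of 3 on the high fat diet. Chow mesentery library C, the shallowest of all, was below every other mesentery library. The changes from mesentery to epididymal fat were -1.27 ± 1.23 on chow (SE, adjusted p = 0.582) and -3.26 ± 1.23 on the high fat diet (0.133), neither of which passed.

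The Krt8 estimate on chow depended on which mesentery library was left out. Without chow mesentery library C the change was -3.01 (limma, adjusted p = 0.0281), and in the libraries numbered 50 to 53 alone it was -2.58 (0.0403). Without chow mesentery library A it was -0.05 (0.989), and without B it was -0.75 (0.753). On the high fat diet Krt8 was called in 5 of 25 alternatives, among them the fit without chow mesentery library C (adjusted p = 0.0141) and DESeq2 (0.00727). Within the libraries numbered 50 to 53, Krt8 was at 114 to 330 normalized counts in mesentery and at 7.43 to 53 in epididymal fat, with no overlap. In the libraries numbered 87 and 88 it was at 4.22 and 52.4 in mesentery and at 12.3 and 11.2 in epididymal fat, which did overlap.

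Krt18 encodes the type I partner. It was at 408, 180 and 56.3 normalized counts in chow mesentery and at 0, 179 and 336 in high fat mesentery. It was at 180, 122 and 70.5 in chow epididymal fat and at 25.9, 42.9 and 21.9 in high fat epididymal fat. High fat mesentery library A had no Krt18 read although its Krt8 level was 52.4, while every other library had both keratins. On the high fat diet the change from mesentery to epididymal fat was -0.39 ± 1.59 (SE, adjusted p = 0.95). Leaving out that library made it -3.04 (adjusted p = 0.0303), and leaving out high fat mesentery library B or C turned its direction, to 0.71 and 1.16.

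Krt19 encodes a small type I keratin of simple epithelia. Its levels were 174, 93.2 and 23.9 normalized counts in chow mesentery, 137, 132 and 123 in high fat mesentery, 61.1, 136 and 76.6 in chow epididymal fat and 88.8, 128 and 31.9 in high fat epididymal fat. The 4 groups were close in level, with means from 82.9 ± 48.3 to 131 ± 7.54 (SD, n = 3). The tissues overlapped on both diets and Krt19 was called in no comparison. Within shared numbers it was higher in epididymal fat in 2 of 3 pairs on chow and in 0 of 3 on the high fat diet. Krt8 and Krt18 have processed pseudogene copies in the mouse genome, and how reads shared with such copies were counted is not given in the sources used here, so their levels carry that uncertainty.

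**Figure D3:**
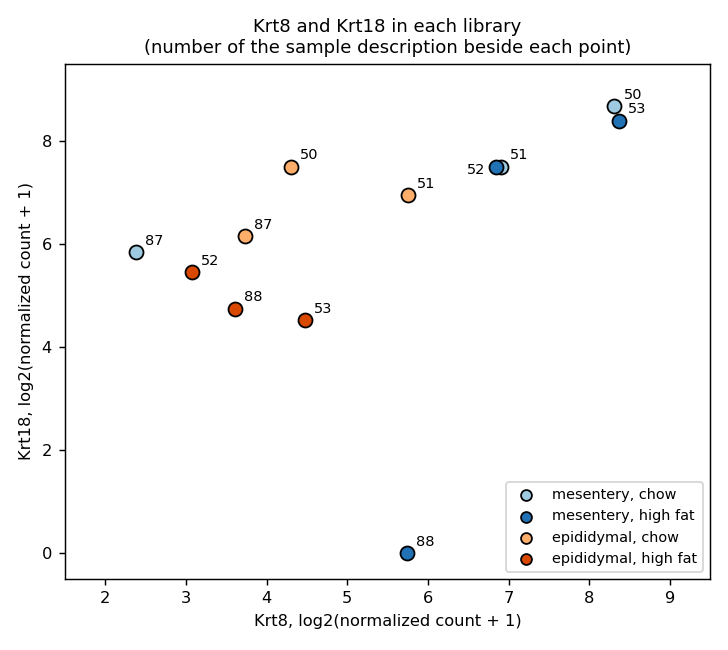
Krt8 against Krt18 in each library, both as log2(normalized count + 1), coloured by group and marked with the number of the sample description. The 4 mesentery libraries numbered 50 to 53 lie at the upper right, mesentery library 88 has no Krt18 read, and mesentery library 87 has the lowest Krt8 level of all.

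Per kilobase of annotated exon, which allows levels to be compared between genes, the order of the genes differed between the tissues. In chow mesentery the mean levels were 149 normalized counts per kilobase for Krt18, 74.9 for Krt8, 52.4 for Krt19, 8.00 for Upk1b, 5.85 for Upk3b, 3.51 for Msln and 0.379 for Lrrn4. By these means the keratins led all the surface genes there, although Krt8 ran from 2.16 per kilobase in library C to 162 in library A. In chow epididymal fat Krt18 was at 86.5 and Upk1b at 75.7, followed by Krt19 at 49.3, Upk3b at 48.7, Msln at 40.7, Krt8 at 14.3, Lrrn4 at 9.46 and Wt1 at 1.20. In high fat epididymal fat Krt19 came first at 44.7 per kilobase, then Upk1b at 37.5, Upk3b at 24.5, Msln at 23.9 and Krt18 at 21.05. The ratio of Krt8 to Krt18 per kilobase ran from 0.0550 to 0.721 in mesentery (median 0.486, 5 libraries with Krt18 reads) and from 0.0766 to 0.710 in epididymal fat (median 0.223, 6 libraries), so these ranges overlapped almost entirely.

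The diet comparisons asked whether the high fat diet altered these genes within a tissue. No mesothelial gene was called in mesentery or in epididymal fat. By limma 0 of 7 were called in either tissue, 0 had an unadjusted p under 0.05, and edgeR and DESeq2 also called 0. Over all genes, 0.0135% were called in mesentery and 0.549% in epididymal fat, so few calls existed in either.

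In epididymal fat all 7 tested genes had a negative estimate on the high fat diet, from -1.96 to -0.27, with a median of -0.88 beside 0.10 over all genes. Upk3b changed by -1.04 ± 0.615 (SE, adjusted p = 0.951). Its chow mean of 172 ± 66.9 normalized counts stood beside 86.4 ± 46.8 on the high fat diet (SD, n = 3), and the libraries of the diets overlapped. For Msln the means were 125 ± 86.2 and 73.3 ± 4.73, and for Upk1b 158 ± 63.3 and 78.4 ± 34.3. Krt18 was the gene whose diet groups did not overlap in epididymal fat, with every high fat library below every chow library; 13.5% of all genes did not overlap there. Its change was -1.96 ± 1.59 (adjusted p = 1), and the lowest adjusted p over its alternatives was 0.0966.

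In mesentery no gene's diet groups were separate, beside 9.61% of all genes. Of the 7 estimates 5 were positive and 2 negative, one of the positive being that of Lrrn4, which lay at or under 3 reads in 5 of 6 mesentery libraries and gives no information on diet there. Msln changed by 1.84 ± 1.07 (SE, adjusted p = 0.897), a value that ranged from 0.08 to 2.91 over the alternatives. Krt18 changed by -2.04 ± 1.59 with high fat mesentery library A included and by 0.60 without it. Krt8 changed by 1.12 ± 1.23, and by -0.63 without chow mesentery library C.

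The difference of the diet effects between the tissues was called for 0 of 7 genes by limma, with 0 at an unadjusted p under 0.05 (lowest 0.145, Upk3b) and 0 called by edgeR or DESeq2, beside 0.00450% of all genes. The estimate, epididymal minus mesentery diet effect, was -2.29 ± 1.52 for Msln, -1.35 for Upk3b, -1.52 for Lrrn4 and -0.13 for Upk1b. The smaller tissue changes on the high fat diet for Msln, Upk3b and Lrrn4 were therefore not shown to differ from those on chow. The Lrrn4 estimate rests on mesentery values at or under 3 reads in most libraries, which give no information on diet.

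Other genes of mesothelial cells were taken from a list of 12, of which 11 were tested and Bnc1 was not analysed here. On chow 6 of 11 rose in epididymal fat over mesentery and 0 fell, with a median of 2.09, beside 7.32% of all genes called higher. Those of the list that rose were Gpm6a, Cldn15, Nkain4, Rspo1, Aldh1a2 and Efemp1. Under the high fat diet 4 of 11 rose, Gpm6a, Cldn15, Aldh1a2 and Efemp1, and 0 fell, with a median of 0.95. Over all genes 4.91% were called higher there. Cldn15, a claudin that forms cation pores at tight junctions, was at 824 ± 194 normalized counts in chow mesentery and 3529 ± 954 in chow epididymal fat (SD, n = 3), a change of 2.09 (adjusted p = 0.000605). Gpm6a, a membrane glycoprotein, went from 89.8 ± 70.4 to 904 ± 216 between the same groups, a change of 3.57 (adjusted p = 0.00501). Efemp1, which encodes the matrix protein fibulin-3 and is also made by fibroblasts, was at 246 ± 110 and 4151 ± 2388, a change of 4.01 (adjusted p = 0.000698). Ezr, which links microvilli to actin, was at 211 ± 22.7 and 386 ± 181 and was not called (adjusted p = 0.351). Muc16, Krt7, Pkhd1l1 and Cdh3 were not called in any comparison either. In the diet comparisons limma called 0 of 11 in either tissue, as did edgeR and DESeq2, with 2 at an unadjusted p under 0.05 in mesentery and 1 in epididymal fat.

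All 8 genes summed did not separate the tissues: the range was 127 to 960 normalized counts in chow mesentery, 273 to 815 in high fat mesentery, 488 to 933 in chow epididymal fat and 279 to 543 in high fat epididymal fat. The sum of the genes other than keratins, a grouping made after the values were seen, restates the single-gene results. The 5 genes Msln, Upk3b, Upk1b, Wt1 and Lrrn4 together reached 42.2 to 61.5 normalized counts in chow mesentery and 26.7 to 112 in high fat mesentery. They reached 329 to 621 in chow epididymal fat and 204 to 364 in high fat epididymal fat, above every mesentery library. Krt8 and Krt18 together ran from 60.5 to 724 in chow mesentery, 52.4 to 666 in high fat mesentery, 82.7 to 199 in chow epididymal fat and 37.1 to 50.4 in high fat epididymal fat.

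Markers of other cells moved with the same tissue comparison. Of all genes tested, 12.8% were called on chow (7.32% higher in epididymal fat) and 8.34% on the high fat diet (4.91% higher). On chow 5 of 8 endothelial genes fell in epididymal fat, 6 of 8 fibroblast genes rose, 6 of 6 adipocyte genes rose, 2 of 6 macrophage genes rose and 4 of 6 smooth muscle genes rose. In high fat libraries 6 of 8 endothelial genes fell, and 7 of 8 fibroblast, 5 of 6 macrophage and 3 of 6 smooth muscle genes rose, while 0 of 6 adipocyte genes were called by limma, edgeR or DESeq2 (0 at an unadjusted p under 0.05). The summed fibroblast level was 6538 to 10012 normalized counts in chow mesentery, 4452 to 9501 in high fat mesentery, 18072 to 56292 in chow epididymal fat and 39730 to 55910 in high fat epididymal fat. The summed macrophage level was 1232 to 6022, 3401 to 20725, 4483 to 73565 and 115540 to 285348 in the same order. Their part in the rise of the surface genes was not tested.

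In the diet comparison of epididymal fat, where the mesothelial genes had negative estimates, 3 of 6 adipocyte genes fell and 1 fibroblast gene, Lum, rose. Over all genes 0.549% were called in that comparison. All 6 macrophage estimates were positive (median 3.10), all 8 endothelial estimates negative (median -0.53) and all 6 smooth muscle estimates negative (median -0.94), none of them called by limma; 4, 3 and 1 of these genes had an unadjusted p under 0.05, edgeR called 0 in each list, and DESeq2 called 1, 1 and 0. The summed adipocyte level there was 63085 to 85648 normalized counts on chow and 3938 to 13910 on the high fat diet. These lists' part in the estimates of the mesothelial genes was not tested.

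For the keratins, which other simple epithelia also make, markers of such cells are given beside the values. All but Cela1 of the 8 pancreatic acinar genes passed the filter on low values only through mesentery. All 8 fell in epididymal fat on both diets, beside 12.8% of all genes called on chow and 8.34% on high fat. Their summed level was 45510 to 285817 normalized counts in chow mesentery, lowest in library C, where Krt8 was lowest too. In high fat mesentery the order was opposite: the sum was 140619 in library A, where Krt8 was lowest, 129778 in B and 73466 in C, where Krt8 was highest. The sum was 183 to 262 in chow epididymal fat and 377 to 554 in high fat epididymal fat. The 8 gut and duct epithelium genes were summed at 163 to 367, 224 to 662, 190 to 269 and 147 to 271 normalized counts in the same order of groups. Of these 8 genes limma called 0 in either tissue comparison and edgeR 0, while DESeq2 called 1 on each diet; on chow 1 had an unadjusted p under 0.05 and on the high fat diet 3. In high fat mesentery the gut and duct sum was 224, 304 and 662 in A, B and C, the same order as Krt8 and Krt18. In chow mesentery it was 367, 163 and 228, lowest in B, whereas both keratins were lowest in C. Single genes of this list did not run together across the high fat mesentery libraries. Epcam, the epithelial adhesion molecule, was at 31.8, 122 and 271 normalized counts in A, B and C, and Cdh1, the epithelial cadherin, at 0, 16.6 and 115. Vil1, which encodes the microvillus protein villin, ran the other way, at 98.2, 34.6 and 9.88, and Cftr, a chloride channel of duct cells, was at 26.2, 0 and 16.8. The part of these cell types in the keratin levels was not tested.

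Lists of other uroplakins and keratins were also counted. Of the bladder genes, Upk1a was tested and not called in any comparison, with group means from 6.43 to 15.97 normalized counts, and Upk3a did not pass the filter. Upk2, Krt5 and Krt14 were not analysed here. Krt10, a keratin of stratified epithelium, was at 75.8 to 156 normalized counts as group means and was not called, and Krt1 did not pass the filter.

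**Figure D4:**
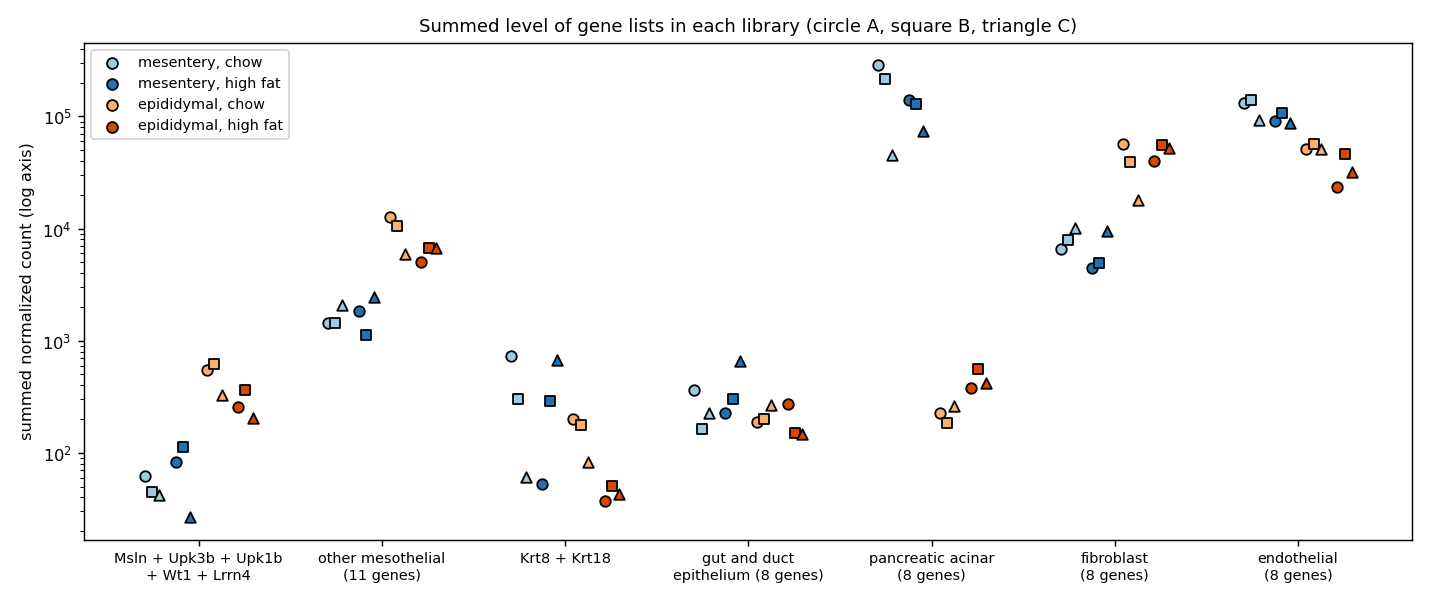
Summed normalized counts of 7 gene lists in each library on a log axis, with circle, square and triangle for libraries A, B and C. The 5 surface and WT1 genes (26.7 to 112 in mesentery, 204 to 621 in epididymal fat) and the other mesothelial genes separate the tissues, whereas Krt8 with Krt18 and the gut and duct genes overlap between them on chow. Cldn15 and Efemp1 make up most of the sum of the other mesothelial genes. Singly, Muc16, Krt7, Pkhd1l1, Ezr and Cdh3 of that list overlap between the tissues on each diet.

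Over the 12 libraries, which share the 2 tissues and so are not independent points, Upk3b correlated with Lrrn4 at a Pearson r of 0.87, with Msln at 0.78 and with Upk1b at 0.70, and Wt1 with Lrrn4 at 0.84. Most mesentery libraries held 3 reads or fewer of Lrrn4 and of Wt1, so their correlations cannot be told apart from the difference between tissues. Krt8 correlated with Lrrn4 at -0.68, with Krt19 at 0.63 and with Krt18 at 0.41, but with Msln at -0.08. Krt18 correlated with Krt19 at 0.12 and with Upk1b at 0.32, and Krt19 correlated with Msln at 0.33. High fat mesentery library A, with no Krt18 read and 1 Upk1b read, weighs on every Krt18 correlation. These values therefore do not show whether the keratins form a group of their own. Of 15326 other genes ranked by their correlation with the mean standardized level of the 8 genes, the first 6 were Ecrg4 (0.91), Susd4 (0.91), Fuom (0.91), Rtkn (0.90), Rragb (0.89) and Syt3 (0.89). In likeness to Msln, Upk3b, Upk1b, Wt1 and Lrrn4 alone, a grouping made after the values were seen, Ttyh1 (0.96), Bdh2 (0.94), Ascc1 (0.94) and Tcf21 (0.94) were among the first 6. Of these, Tcf21, a mesodermal transcription factor gene, had means of 8.25 normalized counts in chow mesentery and 1199 in chow epididymal fat.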

How the data were processed

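Bulk RNA-seq of sorted endothelial cells was analysed from 1 deposited table of normalized counts, a signal per gene made by the authors. Per the submitters' processing notes, STAR 2.7.9a, featureCounts, Subread, DESeq2 1.34.0 and mm39 were named, without role or order; annotation and strand use are not given in the sources used here. All deposited values were whole reads times a step per library (relative tolerance 1e-06), whose reciprocals matched median-of-ratios size factors within 3.8e-15; each listed gene had at least 51 reads.

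Group means of all 12 libraries were fitted to log2(normalized count + 1) by lmFit, with trended eBayes, in limma 3.58.1 under R 4.3.3. It gave 5 contrasts for 22238 genes with a mean of at least 10, adjusted by Benjamini-Hochberg over all of them; the pseudocount of 1 understates changes of low genes. On recovered reads, edgeR 4.0.16 and DESeq2 1.42.0 were alternatives, calling 1984 and 3927 genes between tissues on chow. The fit was tested on simulated data with the same built-in variability for every gene and changes only in better-covered genes. That test therefore does not cover genes as low as Lrrn4 and Wt1. Exon lengths came from GENCODE (GRCm38), lengths only, and windows from RefSeq. Named genes were the 8 genes, up to 4 of the most abundant of each other list that needed an example with those called in a diet comparison, and the 6 most alike. Genes and lists were chosen with earlier results of these data known; Nkain4, Rspo1, Aldh1a2, Muc16, Krt7, Pkhd1l1, Cdh3, Epcam, Cdh1, Vil1 and Cftr were named after their values were seen where that rule did not take them.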

Additional observations from a re-analysis of the deposited data

How the results depend on the processing

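Counts of called genes were 0 under all alternatives for the diet comparisons (25 each) and for the difference of the diet effects (24). On chow 4 genes were called between tissues, but 2 without the variance trend, 2 with only the groups compared in the fit, 2 by edgeR, and 1 to 5 when each library was left out in turn. On the high fat diet 1 gene was called, but 0 with a pseudocount of 0.5, without a filter, with columns rescaled to the same total, with TMM scaling, without the trend and by edgeR. It was 2 with the number range as a covariate, 2 in libraries numbered 50 to 53, 2 by DESeq2, and 0 to 2 when each library was left out. The replicate block for the letter or number left 4 genes called on chow, 1 on the high fat diet and 0 in the other comparisons. It changed no call of a named gene. The numbers were not treated as pairs. Correlations of same-numbered libraries' deviations averaged 0.38 in chow and -0.04 in high fat libraries. Those of same-lettered libraries between diets averaged -0.30 in epididymal fat and 0.00 in mesentery. Not every library correlated best with its own number.

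Directions turned for 4 changes. Leaving out each library in turn, Krt18 between tissues on the high fat diet ranged from -3.04 to 1.16, Krt18 between diets in mesentery from -3.59 to 0.60, Krt8 between diets in mesentery from -0.63 to 2.34 and Upk1b in the difference of the diet effects from -1.195 to 0.75. In libraries numbered 50 to 53 the Krt8 diet change in mesentery was -0.004. Of the single-gene values, 434 kept direction and side of the threshold, 36 lost the call, 9 gained one and 12 reversed. Rescaling to the same total moved the median of all genes from -0.00 to 0.12 for diet in mesentery, from 0.10 to -0.03 for diet in epididymal fat, from 0.11 to -0.14 for the difference of the diet effects, and from 0.06 to -0.11 between tissues under high fat feeding. Beyond the left-out libraries, where fewer samples remained, the causes were not tested. Depth limits Wt1 and Lrrn4 in mesentery, where most libraries held 3 reads or fewer, and a change in them there was not detectable at this depth.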
